A study of Mus musculus with 36 samples.

Results

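The genes described here code for subunits of the mitochondrial respiratory chain and ATP synthase, in dorsal root ganglia (DRG) and spinal cord of female knockout and wild-type mice. Members were all protein-coding genes whose symbol in the GENCODE M21 annotation belongs to the subunit families of complexes I to V (Nduf, Sdh, Uqcr, Cox, Atp5) or to the protein-coding genes of mitochondrial DNA (mt-), and whose mean reached 1 CPM (counts scaled to a common library size) in at least 1 of the 8 groups of libraries. Of 97 genes with such a name, 91 met the level, out of 15282 protein-coding genes that met it; 78 lie in the nucleus and 13 in mitochondrial DNA. By symbol, 35 of the nuclear members belong to complex I, 4 to complex II, 8 to complex III, 14 to complex IV and 17 to complex V. Ndufa4 was counted with complex I by its name, although its protein is now known as a subunit of complex IV. The members nearest the level were Cox4i2, with a mean of 1.14 CPM in naive wild-type DRG, and Cox6b2, with 2.96 CPM there. The nearest genes under it were Ndufa4l2, whose highest group mean was 0.933 CPM, and Cox7b2, whose highest was 0.654 CPM. Ndufa4l2, Cox7b2, Cox8b and Cox6a2 are therefore not described further.

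Complexes I and II pass electrons from NADH and succinate to ubiquinone, complex III passes them on to cytochrome c, and complex IV gives them to oxygen. Complexes I, III and IV pump protons while doing so, and complex V, the ATP synthase, uses the proton gradient to make ATP. Complexes I, III, IV and V are built from proteins of both genomes, whereas complex II is made from nuclear genes alone. Sensory neurons, with long axons and frequent firing, depend heavily on this supply.

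The study compared knockout mice with wild-type mice, each either after spared nerve injury (SNI, a nerve injury model of neuropathic pain) or naive. Each genotype gave 4 DRG and 4 cord libraries after SNI and 5 DRG and 5 cord libraries from naive mice, 36 in all. The cord samples are labelled spinal cord, and the series' design text calls the tissue dorsal. The mice's age, the time after SNI and whether ganglia were pooled were not stated. The total per library was 21.3 to 27.3 M estimated reads. The labels do not say that libraries of a group came from separate animals, so p-values rest on variation between libraries. That variation was estimated for each gene over all groups of a fit and moderated across genes. It is therefore not the spread of the compared groups alone.

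Naive DRG libraries A2 and A4 are called wild type in their titles but knockout in their genotype field and in the deposited tables' column names; they were used as knockout. Wild-type DRG libraries A3 and C1 (naive) and E3 and F3 (SNI) stood apart from the other 5 wild-type DRG libraries. Their summed CPM of ribosomal protein genes was 19200 to 22800 CPM, against 13100 to 15450 CPM in the others. Counts on the 13 mitochondrially encoded members were 5.18 to 6.01% of their total, against 3.58 to 4.89%. That share leaves out reads counted on nuclear copies of these genes, and on it A1 (4.89%) lay close to E3 (5.18%). Results in DRG are therefore given with and without A3, C1, E3 and F3 where that matters. These libraries were set apart partly by the members' own counts, so fits without them are no independent check of the members. As to tissue, all 5 sensory neuron markers were higher in naive wild-type DRG and all 6 dorsal cord markers were higher in naive wild-type cord.

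Values below are CPM after scaling by trimmed mean of M values (TMM) over the 36 libraries, fold changes are log2 with their standard errors, and a gene is called where its adjusted p was under 0.05 in edgeR's quasi-likelihood test, with Benjamini-Hochberg adjustment over every gene tested. All 91 members were tested in every comparison. Levels of different genes are compared as CPM per kilobase of transcript.

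Among nuclear members in naive wild-type DRG, Ndufa4 averaged 678 CPM per kilobase, Uqcrh 590 and Cox4i1 550. Uqcrh is the acidic hinge protein of complex III, and Cox4i1 the ubiquitous form of a regulatory subunit of complex IV. The catalytic beta subunit of ATP synthase, Atp5b, averaged 455 CPM per kilobase in naive wild-type DRG and 633 CPM per kilobase in naive wild-type cord. The members differed most within families that have tissue forms. Cox4i1 averaged 421 ± 57.3 CPM in naive wild-type DRG (SD, n = 5), whereas Cox4i2, a form known from lung, averaged 1.14 ± 0.413 CPM there. Cox6b1 averaged 268 ± 45.6 CPM in naive wild-type DRG, and the testis form Cox6b2 averaged 2.96 ± 0.75 CPM. Cox7a2 averaged 235 ± 50.1 CPM in naive wild-type DRG, and Cox7a1, the heart and skeletal muscle form, averaged 5.25 ± 1.28 CPM. In each of these families the broadly used form held nearly all of the reads. The genes for the c subunit of ATP synthase, Atp5g1, Atp5g2 and Atp5g3, code for the same mature protein. Atp5g3 averaged 240 CPM in naive wild-type DRG, Atp5g1 136 CPM and Atp5g2 7.7 CPM, although 87.4% of the 50-base stretches of Atp5g2 also occur in other genes, so its reads may be split. The remaining families, Cox6a, Cox7b and Cox8, had a single member each over the level.

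The mitochondrially encoded members were read far more than the nuclear ones. mt-Co1, the catalytic core of complex IV, averaged 11370 CPM per kilobase in naive wild-type DRG. There, mt-Nd1, mt-Nd4 and mt-Cytb averaged 5521, 4673 and 5963 CPM per kilobase, and mt-Nd5 and mt-Nd6 averaged 1696 and 1456 CPM per kilobase. mt-Co2 and mt-Co3 were listed at only 216 and 237 CPM per kilobase. The deposited counts for these genes cannot be read alone. A stretch of nuclear DNA on chromosome 1 carries a copy of part of the mitochondrial genome, annotated as unprocessed pseudogenes, and most reads of some mitochondrial genes were counted there.

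The start of mt-Co2 and of its copy Gm28661, and the start of mt-Nd3 and of its copy Gm28438, show how little separates them. Coordinates are GRCm38, chrM:7013-7072 (plus strand) for mt-Co2, chr1:24615506-24615565 (minus) for Gm28661, chrM:9459-9518 (plus) for mt-Nd3 and chr1:24613060-24613119 (minus) for Gm28438. Capitals mark the base that differs.
mt-Co2: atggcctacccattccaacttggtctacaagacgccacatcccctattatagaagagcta
Gm28661: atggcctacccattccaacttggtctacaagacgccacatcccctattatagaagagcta
mt-Nd3: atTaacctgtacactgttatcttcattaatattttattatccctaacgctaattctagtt
Gm28438: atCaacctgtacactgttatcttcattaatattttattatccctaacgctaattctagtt

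Over their whole aligned lengths, mt-Co2 and Gm28661 had no difference in 681 bases, mt-Co3 and Gm28437 none in 783, mt-Atp6 and Gm10925 none in 678, and mt-Nd4l and Gm10222 none in 294. mt-Nd3 and Gm28438 differed at 1 base in 345, T3C, counted from 1 at the first base of the gene. Of the counts summed over gene and copies, 0.341 to 3.08% in a library stood on mt-Co2 itself, 0.706 to 7.02% on mt-Co3, 4.55 to 7.69% on mt-Atp6, 4.67 to 13.99% on mt-Nd3 and 17.0 to 40.2% on mt-Nd4l. For mt-Co1, whose copy Gm29216 shares 28.7% of its 50-base stretches, 88.7 to 92.9% stood on the mitochondrial gene. Summed with the copies, mt-Co2 averaged 8646 CPM in naive wild-type DRG and 9364 CPM in naive wild-type cord, against 148 and 198 CPM for the mitochondrial gene as listed. mt-Nd1, mt-Nd2, mt-Nd4, mt-Nd5, mt-Nd6, mt-Cytb and mt-Atp8 kept at least 99.99% of their summed counts. Reads of mt-Atp8 and mt-Atp6, and of mt-Nd4l and mt-Nd4, can also be split where these genes overlap.

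**Figure D1:**
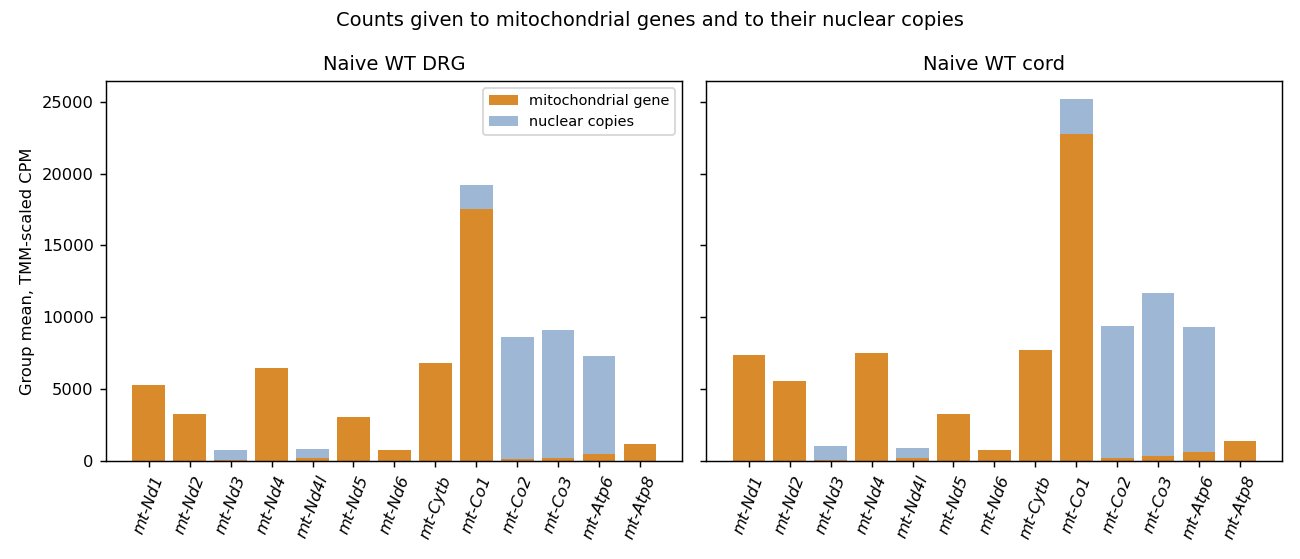
Mean CPM of each mitochondrially encoded member (13 genes, complexes I, III, IV and V) in naive wild-type DRG and naive wild-type cord (n = 5 each), stacked into the part counted on the mitochondrial gene and the part counted on its nuclear copies. Almost the whole bar of mt-Co2, mt-Co3 and mt-Atp6 stands on the copies, whereas mt-Nd1, mt-Cytb and mt-Nd4 show none.

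Between DRG and cord of naive wild-type mice, members differed in both directions. Of 91 members, 40 were higher in DRG (44%) and 23 were lower (25.3%), against a background of 40.1% of all 20626 tested genes higher and 36.6% lower. The members' median log2 fold change of DRG over cord was 0.12, against 0.06 over all genes tested. Without A3, C1, E3 and F3, 37 members were higher and 30 lower, and the median was 0.004, against 0.05 over all genes. Among nuclear members, complex I had 18 higher and 7 lower, complex II 2 and 2, and complex III 4 and 3. Nuclear members of complex IV were 8 and 1, and those of complex V 8 and 4. The 6 called mitochondrially encoded members were all lower.

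Sdha, the flavin-holding catalytic subunit of complex II, had 216, 207, 233, 219 and 201 CPM in naive wild-type DRG, against 509, 558, 516, 514 and 524 CPM in naive wild-type cord. Every DRG library lay below every cord library, and the log2 fold change of −1.26 ± 0.049 was the largest decrease among the members (edgeR adjusted p = 2.5e-22). Uqcrc1, a core protein of complex III, had 104, 105, 128, 139 and 89.4 CPM in naive wild-type DRG and 236, 257, 224, 229 and 229 CPM in naive wild-type cord. The groups did not overlap (−1.03 ± 0.084, adjusted p = 3.18e-13). Atp5a1 (−0.76), Atp5b (−0.45), Sdhc (−0.68), the Rieske protein gene Uqcrfs1 (−0.55), Uqcrc2 (−0.32), Ndufv1 (−0.25), Ndufs1 (−0.24) and Cox5a (−0.24) were lower in DRG too. Of the further core subunits of complex I, Ndufs3 (−0.28) and Ndufs7 (−0.15) were lower and Ndufs8 (0.525) was higher. The accessory subunits Ndufa12 (−0.62) and Ndufa6 (−0.25) and Atp5j (−0.28), of the stalk of ATP synthase, were also lower.

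In the other direction, Ndufv3, an accessory subunit of complex I, had 103, 125, 107, 106 and 129 CPM in naive wild-type DRG and 56.0, 59.9, 54.3, 56.2 and 54.6 CPM in naive wild-type cord. All DRG libraries were higher (1.05 ± 0.068, adjusted p = 4.78e-16). Ndufb4 (1.20 ± 0.128), Atp5mpl (1.19 ± 0.119), Cox7a1 (1.18 ± 0.183), Atp5e (1.11 ± 0.152), Ndufa7 (0.91 ± 0.087) and Ndufb3 (0.74 ± 0.071) were higher in DRG as well, with adjusted p between 1.85e-11 and 5.28e-07. Ndufb4 shares 37.0% of its 50-base stretches with other genes. Besides Cox7a1, 3 of 7 skeletal muscle markers were higher in DRG, against 40.1% of all genes tested. The markers' summed level was 2.59 to 79.6 CPM in naive wild-type DRG and 2.68 to 13.9 CPM in naive wild-type cord, so the ranges overlapped. Their part in the level of Cox7a1 was not tested. Sdhb (0.22) and Sdhd (0.39) were higher in DRG, so that the 4 subunits of complex II split evenly. Among the isoform families, Ndufa4 (0.76), Cox6b1 (0.72), Cox6b2 (0.71), Cox7a2 (0.78), Cox7b (0.74) and Cox5b (0.20) were higher in DRG. Values for Cox4i1 (0.14), Cox4i2 (0.07), Cox6a1 (0.11), Cox8a (−0.18), Atp5g1 (0.06), Atp5g2 (−0.46), Atp5g3 (−0.05) and Atp5c1 (0.04) did not pass the test.

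**Figure D2:**
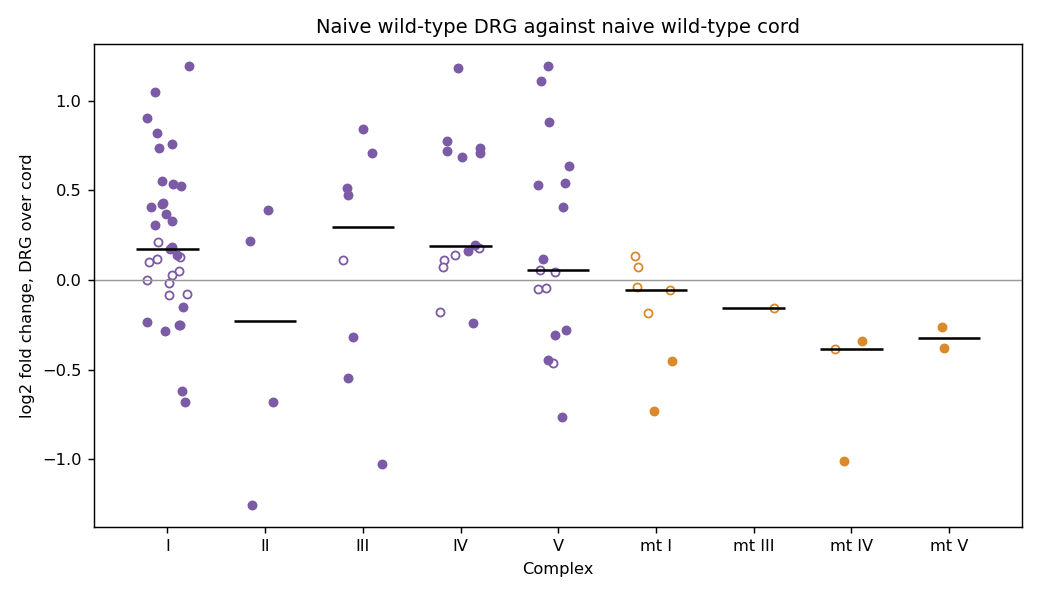
Log2 fold change of naive wild-type DRG over naive wild-type cord for the 91 members, by complex (1 point per gene; purple nuclear, orange mitochondrially encoded; filled points have an adjusted p under 0.05; the line is the median). Sdha at −1.26 and Uqcrc1 at −1.03 are the lowest points of complexes II and III, and the filled orange points are all below 0.

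None of the mitochondrially encoded members was higher in DRG, and 6 were lower. mt-Nd2, a core subunit of the membrane arm of complex I, had 3249, 3786, 2605, 2570 and 4203 CPM in naive wild-type DRG and 5168, 5853, 5313, 5189 and 6309 CPM in naive wild-type cord. The groups were separate (−0.73 ± 0.118, adjusted p = 1.12e-06). mt-Co1 had 18060, 20040, 14610, 13930 and 21210 CPM in naive wild-type DRG and 22310, 24850, 22100, 21390 and 23050 CPM in naive wild-type cord. These groups lay close together without overlapping (−0.34 ± 0.094, adjusted p = 0.0015). mt-Nd1 (−0.45), mt-Co3 (−1.01), mt-Atp6 (−0.38) and mt-Atp8 (−0.26) were also called, and summed with its copies mt-Co3 was lower by less (−0.33 ± 0.107, adjusted p = 0.00604). mt-Nd3 was not called as listed (0.07 ± 0.254) but was lower in DRG when summed with Gm28438 (−0.41 ± 0.113, adjusted p = 0.00147). As listed, mt-Nd4 (−0.19), mt-Nd4l (0.13), mt-Nd5 (−0.04), mt-Nd6 (−0.05), mt-Cytb (−0.15) and mt-Co2 (−0.39) did not pass the test. Summed with their copies, mt-Nd4l stood at −0.09 and mt-Co2 at −0.08.

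Transcript length went along with the direction of the members. Across the 78 nuclear members the correlation of log2 length with the log2 fold change of DRG over cord was −0.49, against −0.11 across 6343 other protein-coding genes whose average log2 CPM was 5 or more (Pearson, across genes, which are not independent replicates and share the same libraries). With each library's trend on length and GC content removed, 16 members were higher in DRG and 60 lower. Sdha, Uqcrc1 and Ndufv3 kept their direction there, whereas 20 members that were higher in DRG changed sign.

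The promoters of Sdha, Ndufv3 and Uqcrc1, the nuclear members with a promoter in the table and the lowest adjusted p in this comparison, are shown with that of Cox7b, which had the lowest adjusted p of the members for genotype in naive DRG. Atp5a1 (adjusted p = 1.33e-14) had no promoter matched. They run from 250 bases before to 50 bases after the gene's start in RefSeq on GRCm38.p6, at chr13:74350191-74350490 (minus strand) for Sdha, chr17:31519865-31520164 (plus) for Ndufv3, chr9:108936398-108936697 (plus) for Uqcrc1 and chrX:106015450-106015749 (plus) for Cox7b. Capitals mark matches to the recognition letters of NRF1, a factor known for controlling respiratory genes.
Sdha: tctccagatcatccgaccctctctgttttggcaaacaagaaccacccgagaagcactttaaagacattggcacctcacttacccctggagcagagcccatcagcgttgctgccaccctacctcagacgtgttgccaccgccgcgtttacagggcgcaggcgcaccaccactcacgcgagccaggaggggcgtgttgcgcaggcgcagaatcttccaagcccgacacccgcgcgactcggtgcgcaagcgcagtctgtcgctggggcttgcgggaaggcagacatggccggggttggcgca
Ndufv3: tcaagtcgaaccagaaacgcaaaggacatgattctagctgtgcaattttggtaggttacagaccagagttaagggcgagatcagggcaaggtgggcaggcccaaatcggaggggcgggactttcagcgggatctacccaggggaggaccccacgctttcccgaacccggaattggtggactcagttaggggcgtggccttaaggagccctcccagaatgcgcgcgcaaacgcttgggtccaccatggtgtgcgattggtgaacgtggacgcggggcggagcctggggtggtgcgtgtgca
Uqcrc1: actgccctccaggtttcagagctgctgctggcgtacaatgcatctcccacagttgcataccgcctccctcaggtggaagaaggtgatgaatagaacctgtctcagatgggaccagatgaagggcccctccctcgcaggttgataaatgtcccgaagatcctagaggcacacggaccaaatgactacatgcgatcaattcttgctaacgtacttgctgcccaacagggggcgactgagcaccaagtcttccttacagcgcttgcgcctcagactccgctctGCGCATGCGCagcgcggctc
Cox7b: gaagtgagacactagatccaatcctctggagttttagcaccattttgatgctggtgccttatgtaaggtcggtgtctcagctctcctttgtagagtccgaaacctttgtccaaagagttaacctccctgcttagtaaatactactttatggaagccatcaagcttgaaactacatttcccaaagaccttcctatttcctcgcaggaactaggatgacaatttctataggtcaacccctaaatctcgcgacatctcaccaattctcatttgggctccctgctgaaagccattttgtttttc

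A promoter was found for 65 of the 78 nuclear members among 27025 genes of the table. Both strands were searched for the letters GCATGCGC (NRF1), CCGGAAG (ETS factors) and AAGATGGC (YY1). The NRF1 letters stood in 10 of the 65 promoters (15.4%) and in 2.8% of all promoters, the ETS letters in 14 (21.5%) and in 9.12%, and the YY1 letters in 9 (13.8%) and in 2.88%. In Uqcrc1 the NRF1 letters occur on both strands in overlapping matches that begin at bases 31 and 33, counted from 1 at the start site. By direction in DRG against cord, the NRF1 letters stood in 5 of 37 promoters of members higher in DRG and in 2 of 12 of those lower, and the ETS letters in 11 of 37 and 1 of 12. These matches describe the letters only, and no difference between the directions was tested.

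After SNI, some members were called lower in DRG of each genotype. Their share was little above that of all genes in knockout and below it in wild type. In knockout DRG 15 of 91 members (16.5%) were lower after SNI than in naive mice and none was higher, against a background of 13.3% of all 19496 tested genes lower. In wild-type DRG 6 members (6.59%) were lower and none was higher, against a background of 12.3%, so the share in wild type was below that of all genes. The median log2 fold change of the members was −0.09 in knockout DRG and −0.13 in wild-type DRG, against 0.01 and −0.01 over all genes. Of the 15 members lower in knockout DRG, 5 were also among the 6 lower in wild-type DRG (33.3% and 83.3%): Ndufs1, Ndufa9, Ndufb3, Sdha and Uqcrc2. How many of all genes were lower in both genotypes was not counted.

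Ndufs1, the iron-sulphur subunit at the electron entry of complex I, had 151, 156, 159 and 150 CPM in SNI knockout DRG and 194, 184, 185, 185 and 182 CPM in naive knockout DRG. In SNI wild-type DRG it had 149, 142, 160 and 149 CPM, against 176, 166, 177, 183 and 178 CPM in naive wild-type DRG. Neither genotype's groups overlapped, and the decrease was −0.27 ± 0.046 in knockout (adjusted p = 0.000249) and −0.24 ± 0.046 in wild type (adjusted p = 0.000605). Sdha had 216, 202, 204 and 199 CPM in SNI knockout DRG and 278, 235, 255, 256 and 264 CPM in naive knockout DRG. In SNI wild-type DRG Sdha had 202, 181, 203 and 172 CPM, against 216, 207, 233, 219 and 201 CPM in naive wild-type DRG. The knockout groups were separate (−0.32 ± 0.063, adjusted p = 0.000757), and the wild-type groups overlapped (−0.20 ± 0.063, adjusted p = 0.0276).

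Ndufb3, an accessory subunit of the membrane arm of complex I, had 62.0, 61.6, 62.8 and 64.9 CPM in SNI knockout DRG and 75.8, 77.9, 76.4, 73.8 and 72.6 CPM in naive knockout DRG. In SNI wild-type DRG it had 65.1, 84.3, 61.9 and 74.3 CPM, against 82.5, 101, 78.5, 83.8 and 106 CPM in naive wild-type DRG. The highest SNI wild-type value, from E3, lay above the lowest naive wild-type ones (−0.26 ± 0.092, adjusted p = 0.0461 in knockout; −0.35 ± 0.092, adjusted p = 0.00785 in wild type). Ndufs3, a core subunit of complex I that shares 35.8% of its 50-base stretches with other genes, had 53.5, 50.6, 53.5 and 52.9 CPM in SNI knockout DRG and 69.8, 65.9, 67.2, 64.1 and 71.7 CPM in naive knockout DRG. These groups were well apart (−0.36 ± 0.063, adjusted p = 0.000264), while the value in wild type, −0.16 ± 0.062, did not pass (adjusted p = 0.0628). The Rieske protein gene Uqcrfs1 fell by 0.32 ± 0.072 in knockout DRG (adjusted p = 0.00205), and Atp5a1, the alpha subunit of ATP synthase, by 0.30 ± 0.073 (adjusted p = 0.00392).

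Also lower in SNI knockout DRG were Uqcrc2 (−0.27), Ndufb10 (−0.28), Atp5g1 (−0.23), Ndufa9 (−0.22), Atp5b (−0.19), Ndufa10 (−0.18), Atp5s (−0.16) and Ndufv1 (−0.13). In SNI wild-type DRG Ndufb5 (−0.35), Uqcrc2 (−0.23) and Ndufa9 (−0.20) completed the list. No complex IV member was called in either genotype. Neither was any mitochondrially encoded member. As listed, the values of these members ran from −0.22 to 0.35 in knockout DRG and from −0.40 to 0.35 in wild-type DRG. Summed with the nuclear copies, they ran from −0.061 to 0.095 in knockout DRG and from −0.252 to −0.031 in wild-type DRG, with none called. In these bulk samples, fewer cells of a type and less RNA per cell cannot be told apart. All 10 macrophage markers were higher after SNI in both genotypes (median 1.74 in knockout and 1.44 in wild type), and 3 of 5 sensory neuron markers in knockout and 2 of 5 in wild type were lower. Of 11 general neuronal markers, 5 were lower and 2 higher in knockout, and 2 lower and 3 higher in wild type. Of 7 skeletal muscle markers none was called in knockout and 3 were lower in wild type, their sum being 1.57 to 12.4 CPM in SNI wild-type DRG and 2.59 to 79.6 CPM in naive wild-type DRG. The summed macrophage level was 374 to 500 CPM in SNI knockout DRG against 105 to 173 CPM in naive knockout DRG, and 414 to 731 CPM in SNI wild-type DRG against 150 to 276 CPM in naive wild-type DRG; the part of these markers in the members' decrease was not tested.

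The counts of members lower after SNI moved with the libraries used. Without A3, C1, E3 and F3, 35 members were called in wild-type DRG, 34 of them lower, and 39 in knockout DRG, 35 of them lower. Those libraries had been picked partly by the members' own level, so the counts without them are no independent check. Leaving out E3 alone gave 22 in wild type and 22 in knockout. In wild type, leaving out B3 or F1 gave 2, and leaving out A3, A4, B2, B4, E1, E2, E4, F2, F3 or F4 gave 3. In knockout, leaving out E4 or F4 gave 8, and leaving out A2, C2 or E2 gave 9. The genotypes' responses to SNI were not shown to differ: in the DRG interaction test no member was called, 2 had an unadjusted p under 0.05, the smallest adjusted p was 0.766, and DESeq2 called 0. Of all genes tested, 0.0256% were called in that interaction. Without A3, C1, E3 and F3 it again called no member, and the smallest adjusted p was 0.134 (edgeR). The members' median was then 0.114, against 0.033 with all libraries.

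**Figure D3:**
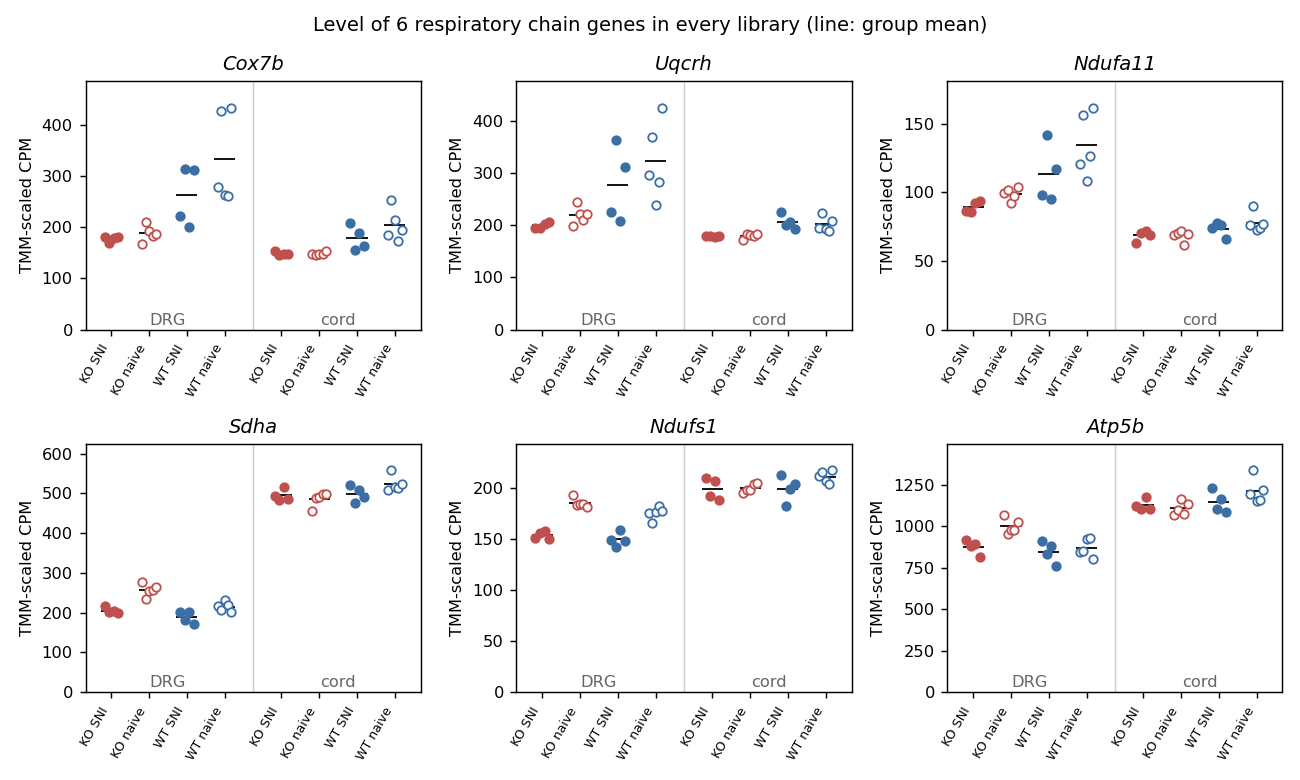
CPM in every library for Cox7b, Uqcrh, Ndufa11, Sdha, Ndufs1 and Atp5b, with DRG groups on the left and cord groups on the right of each panel (order within tissue: SNI knockout, naive knockout, SNI wild type, naive wild type; red knockout, blue wild type; filled SNI, open naive; the line is the group mean). Ndufs1 and Sdha are lower in SNI than in naive knockout DRG, and Cox7b is lower in knockout than in wild-type libraries of naive DRG, where A3 and C1 are the 2 highest points.

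In naive DRG many subunits differed between the genotypes. Of 91 members, 37 were lower in naive knockout than in naive wild-type DRG (40.7%) and 3 were higher (3.3%), against backgrounds of 15.4% of all tested genes lower and 12.8% higher. The members' median log2 fold change was −0.27, against −0.02 over all genes, and 77 of 91 values were negative. All 3 that were higher, Sdha, Atp5a1 and Atp5b, are catalytic or belong to the catalytic head of ATP synthase. The lower members included 18 of complex I, 1 of complex II, 4 of complex III, 7 of complex IV and 7 of complex V, and the complexes' nuclear medians ran from −0.10 in complex II to −0.31 in complex IV.

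Cox7b, a small membrane subunit of complex IV, had 168, 210, 193, 184 and 187 CPM in naive knockout DRG, against 278, 427, 263, 261 and 434 CPM in naive wild-type DRG. All knockout libraries lay below all wild-type libraries, and the highest wild-type values came from A3 and C1 (−0.84 ± 0.155, adjusted p = 0.00143). Ndufa11, an accessory subunit of the membrane arm of complex I, had 99.3, 102, 92.4, 97.2 and 104 CPM in naive knockout DRG and 121, 156, 108, 127 and 162 CPM in naive wild-type DRG. Its groups did not overlap (−0.47 ± 0.11, adjusted p = 0.007). Cox7c, another small subunit of complex IV, had 116, 139, 131, 124 and 129 CPM in naive knockout DRG and 161, 219, 145, 165 and 231 CPM in naive wild-type DRG. The groups were again separate (−0.55 ± 0.132, adjusted p = 0.00804), although Cox7c shares 53.0% of its 50-base stretches with other genes. Uqcrh had 198, 245, 222, 210 and 222 CPM in naive knockout DRG and 297, 368, 239, 284 and 426 CPM in naive wild-type DRG. The lowest wild-type value, from B1, lay under the highest knockout value (−0.58 ± 0.15, adjusted p = 0.0117).

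Sdha went the other way, with 278, 235, 255, 256 and 264 CPM in naive knockout DRG and 216, 207, 233, 219 and 201 CPM in naive wild-type DRG. The knockout libraries were all higher, by 0.24 ± 0.059 (adjusted p = 0.00833). Atp5b had 1068, 955.9, 977.9, 975.2 and 1027 CPM in naive knockout DRG and 844, 853, 924, 929 and 806 CPM in naive wild-type DRG. These groups were separate too (0.18 ± 0.06, adjusted p = 0.0323), and Atp5a1 was higher by 0.22 ± 0.069 (adjusted p = 0.0263). Of further subunits, Ndufs8 (−0.31 ± 0.095, adjusted p = 0.0233), Ndufv2 (−0.31 ± 0.098, adjusted p = 0.0282) and Sdhb (−0.20 ± 0.073, adjusted p = 0.045) were lower. Values for Uqcrc1 (0.23), Ndufs1 (0.06), Ndufv1 (0.04), Uqcrfs1 (0.02), Uqcrc2 (−0.13), Cox5a (−0.01), Cox5b (−0.24), Sdhc (−0.004), Sdhd (−0.19) and Atp5c1 (−0.20) did not pass.

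Among the other lower members of complex I were Ndufb4 (−0.62), Ndufa3 (−0.48), Ndufb8 (−0.45), Ndufb5 (−0.44), Ndufa4 (−0.43), Ndufa13 (−0.32) and Ndufv3 (−0.27). In complex III Uqcr10 (−0.47), Uqcrq (−0.46) and Uqcr11 (−0.34) were lower, and in complex IV Cox7a2 (−0.47), Cox6b1 (−0.36), Cox6c (−0.34), Cox4i1 (−0.32) and Cox7a2l (−0.20), whose protein joins complexes III and IV. In complex V the epsilon subunit gene Atp5e (−0.55), Atp5mpl (−0.53), Atp5l (−0.47), Atp5j2 (−0.45) and Atp5k (−0.44) were lower; Atp5l shares 68.5% of its 50-base stretches with other genes. The c subunit genes Atp5g1 (−0.12), Atp5g2 (0.003) and Atp5g3 (−0.11) did not pass, nor did Cox4i2 (−0.33), Cox6a1 (−0.15), Cox6b2 (−0.03), Cox7a1 (−0.30) or Cox8a (−0.10).

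No mitochondrially encoded member was called in naive knockout DRG, although 12 of 13 values were negative. The values were −0.39 for mt-Nd1 (adjusted p = 0.0629), −0.33 for mt-Nd2, −0.77 for mt-Nd3, −0.29 for mt-Nd4, −0.58 for mt-Nd4l, −0.13 for mt-Nd5, −0.09 for mt-Nd6, −0.27 for mt-Cytb, −0.23 for mt-Co1, 0.01 for mt-Co2, −0.29 for mt-Co3, −0.34 for mt-Atp6 and −0.23 for mt-Atp8. mt-Cytb, the subunit of complex III that binds ubiquinone, had 5492, 6381, 5566, 5516 and 5676 CPM in naive knockout DRG and 6657, 8185, 5499, 5242 and 8527 CPM in naive wild-type DRG. The wild-type libraries enclosed the whole knockout range, with A3 and C1 highest. mt-Nd4 likewise had 5009, 5992, 5083, 5202 and 5380 CPM in naive knockout DRG and 6507, 7747, 5213, 4863 and 7868 CPM in naive wild-type DRG. Summed with its copy, mt-Nd3 was lower in knockout (−0.49 ± 0.144, adjusted p = 0.0205), the only mitochondrially encoded member so called. Summed likewise, mt-Co2 stood at −0.34 (adjusted p = 0.06) and mt-Nd4l at −0.28 (adjusted p = 0.168).

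**Figure D4:**
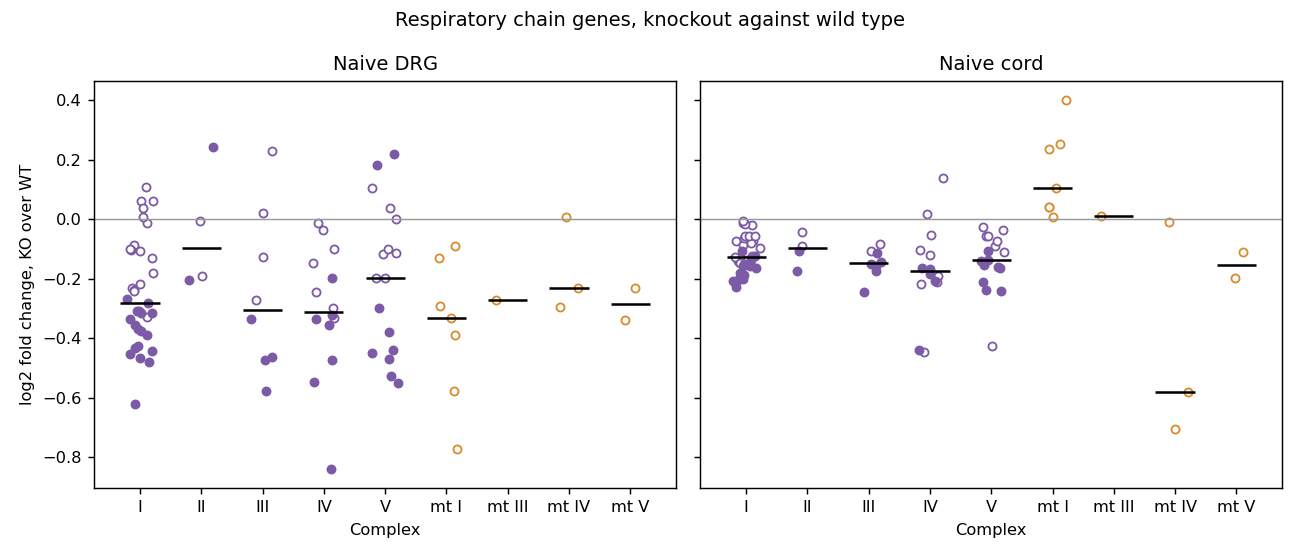
Log2 fold change of knockout over wild type for the 91 members by complex, in naive DRG (left) and naive cord (right); purple points are nuclear and orange points mitochondrially encoded, filled points have an adjusted p under 0.05, and lines are medians. In DRG the filled points lie mostly below 0 with Sdha, Atp5a1 and Atp5b above it, and in cord all 37 filled points lie below 0.

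Other measures moved with this comparison. Ribosomal protein genes were lower in naive knockout DRG in 72 of 77 cases (median −0.47), all 5 blood markers were lower (median −2.13), 7 of 10 macrophage markers were lower (median −0.67) and 8 of 11 general neuronal markers were higher (median 0.38). The summed blood marker level was 186 to 595 CPM in naive knockout DRG and 712 to 3381 CPM in naive wild-type DRG, and the general neuronal sum 14400 to 17990 CPM in naive knockout DRG and 9832 to 13840 CPM in naive wild-type DRG. Their part in the members' shift was not tested. Without A3, C1, E3 and F3, 30 members were called, 28 lower and 2 higher, and the median was −0.11. Leaving out A3 or C1 alone gave 16 called members, A2 or B4 alone 21, and B2 or C2 alone 25. Leaving out A2 and A4 together, the libraries with conflicting labels, gave 9.

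Transcript length moved with it as well. Across the 78 nuclear members the correlation of log2 length with the fold change of knockout over wild type was 0.51, against 0.29 across 6144 other genes (Pearson, across genes of shared libraries). The 35 members under 750 bases had a median of −0.34 and 19 of them were lower, whereas 121 other genes of that length had a median of −0.38 and 82 of them were lower. Members of 1500 to under 2500 bases had a median of 0.04 and the other genes of that length 0.03. The medians of the remaining classes were −0.30 in members and −0.28 in other genes at 750 to under 1000 bases, and −0.19 and −0.11 at 1000 to under 1500. They were 0.06 and 0.10 at 2500 to under 4000 bases, and −0.27 and 0.11 at 4000 and over, where there were 3 and 2 members. Those 2 were Ndufb2 and Atp5g1, placed there by the annotated transcript used for their length. With each library's trend on length and GC content removed, 20 members were lower, 13 higher and the median was −0.03. Cox7b (−0.49 ± 0.076, adjusted p = 0.000254) remained lower, and Sdha (0.21 ± 0.052, adjusted p = 0.00905), Atp5a1 (0.19 ± 0.06, adjusted p = 0.0286) and Atp5b (0.20 ± 0.059, adjusted p = 0.0195) remained higher.

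**Figure D5:**
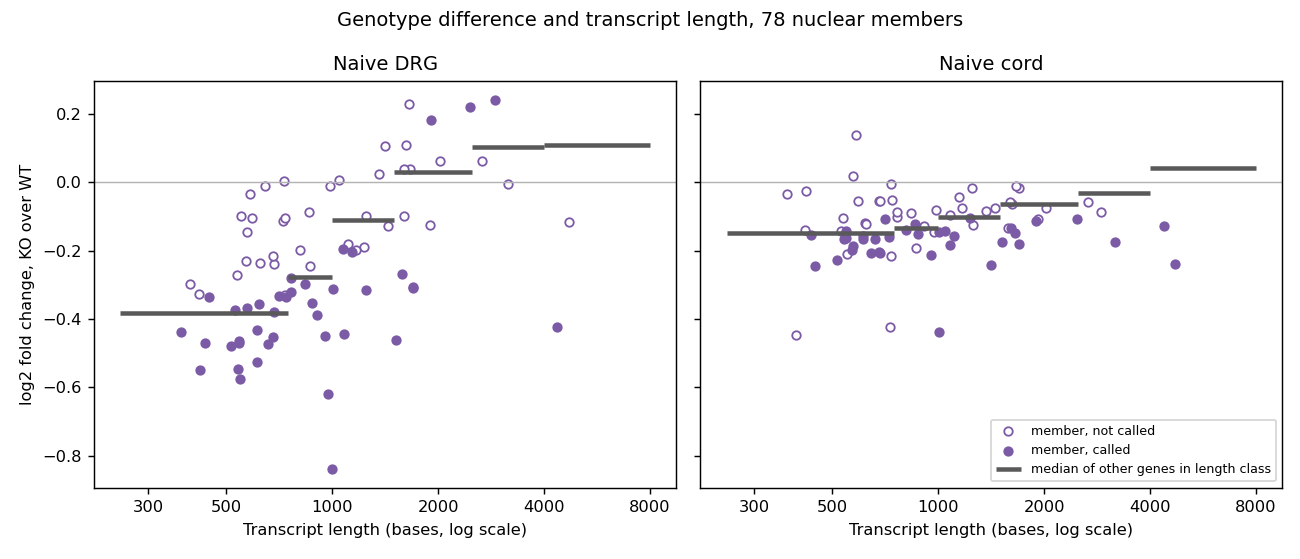
Log2 fold change of knockout over wild type in naive DRG (left) and naive cord (right) against transcript length in bases (log axis) for the 78 nuclear members; filled points are called and grey bars are the median of the other genes in each length class. In DRG, members under 750 bases lie around a median of −0.34 beside −0.38 for other genes, and those of 1500 to under 2500 bases around 0.04 beside 0.03.

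In SNI DRG knockout and wild type were compared with 4 libraries each, against 5 each in naive DRG, where the members' median was −0.27. The interaction test called no member, so the genotype difference was not shown to change with SNI. No member was called, against a background of 5.1% of all tested genes called in either direction; 45 members had an unadjusted p under 0.05, and DESeq2 called 5. The median was −0.22, against 0.01 over all genes, and without A3, C1, E3 and F3 it was −0.02. The smallest adjusted p, 0.0527, belonged to Atp5g1, with 104, 107, 120 and 102 CPM in SNI knockout DRG and 126, 148, 123 and 121 CPM in SNI wild-type DRG. Every knockout library lay below every wild-type library, by −0.26 ± 0.075. Cox7b had 180, 170, 180 and 182 CPM in SNI knockout DRG and 223, 314, 200 and 312 CPM in SNI wild-type DRG. Its groups did not overlap either, but the value of −0.56 ± 0.173 did not pass (adjusted p = 0.0727). Sdha stood at 0.12 ± 0.066 (adjusted p = 0.311). Leaving out F1 gave 24 called members, E1 gave 4, C1 gave 3, and A1 or F2 gave 1.

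In naive cord every called member was lower in knockout. Of 91 members, 37 were lower in naive knockout than in naive wild-type cord (40.7%) and none was higher, against a background of 9.94% of all 18843 tested genes lower. The median was −0.13, against −0.01 over all genes, and 81 values were negative. The lower members comprised 15 of complex I, 2 of complex II, 6 of complex III, 5 of complex IV and 9 of complex V. Of the 37 lower in knockout DRG and the 37 lower in knockout cord, 21 were shared, 56.8% of each. In each tissue alone, 40.7% of all 91 members were lower. How many of all genes were lower in both tissues was not counted. Among the shared members were Cox7b, Cox7c, Ndufa11, Uqcrh, Uqcr11 and Atp5j2.

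Atp5g1 had 109, 114, 116, 98.8 and 121 CPM in naive knockout cord and 134, 136, 135, 132 and 131 CPM in naive wild-type cord. All knockout libraries were lower (−0.24 ± 0.045, adjusted p = 0.000752). Cox5a, a subunit of complex IV on the matrix side, had 136, 132, 141, 140 and 151 CPM in naive knockout cord and 164, 183, 157, 155 and 162 CPM in naive wild-type cord. Its groups were separate (−0.21 ± 0.042, adjusted p = 0.0012). Cox7a2l had 110, 115, 114, 111 and 115 CPM in naive knockout cord and 131, 143, 131, 123 and 123 CPM in naive wild-type cord. Again no libraries overlapped (−0.18 ± 0.038, adjusted p = 0.00144).

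Cox7b showed the largest decrease of the called members here, with 147, 146, 147, 148 and 154 CPM in naive knockout cord and 185, 253, 215, 174 and 195 CPM in naive wild-type cord. The knockout libraries were tightly grouped below the more widely spread wild-type ones (−0.44 ± 0.089, adjusted p = 0.00312). Uqcr11 (−0.25), Atp5d (−0.24), Ndufa3 (−0.23), Atp5j2 (−0.21), Ndufc2 (−0.21), Ndufb8 (−0.20), Ndufs6 (−0.20) and Sdhc (−0.17) followed. Of further subunits, Ndufv2 (−0.18), Ndufs8 (−0.15), Uqcrc1 (−0.15), Ndufs3 (−0.14), Uqcrc2 (−0.11), Atp5a1 (−0.11) and Sdhd (−0.10) were lower. Values for Atp5b (−0.11), Sdha (−0.09), Uqcrfs1 (−0.08), Ndufs1 (−0.06), Sdhb (−0.04), Ndufv1 (−0.01), Cox5b (−0.19) and Atp5c1 (−0.07) did not pass. Sdha, Atp5a1 and Atp5b, higher in naive knockout DRG, were thus not higher in naive knockout cord; no test set the 2 tissues' genotype differences against each other.

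Of the families, Atp5g3 (−0.16), Cox7a2 (−0.17) and Ndufa4 (−0.16) were lower in naive knockout cord, and values for Cox4i1 (−0.10), Cox4i2 (−0.22), Cox6a1 (0.02), Cox6b1 (−0.12), Cox6b2 (0.14), Cox7a1 (−0.45), Cox8a (−0.21) and Atp5g2 (−0.43) did not pass. The mitochondrially encoded members had a median of 0.01 and none was called; mt-Co1 stood at −0.01, mt-Cytb at 0.01 and mt-Nd5 at 0.25. Ribosomal protein genes were lower in 50 of 77 cases (median −0.16), and 4 of 5 blood markers were lower, their sum being 139 to 178 CPM in naive knockout cord and 177 to 508 CPM in naive wild-type cord. Of the oligodendrocyte markers 2 of 5 were lower (median −0.11), with a sum of 21350 to 25480 CPM in naive knockout cord and 24360 to 26860 CPM in naive wild-type cord. Of the macrophage markers 3 of 9 were lower, and of the general neuronal markers 3 of 11 were lower and 1 higher. The part of these markers in the members' shift was not tested. In cord the length of the members went little with their fold change (r = 0.12), whereas r was 0.40 across 6104 other genes. Shorter members stood near other genes of their length. Under 750 bases the medians were −0.155 in members and −0.148 in others, with 17 of 35 and 46 of 87 called lower. They were −0.127 and −0.135 at 750 to under 1000 bases, and −0.116 and −0.101 at 1000 to under 1500. In longer classes members stood lower, at −0.108 and −0.065 for 1500 to under 2500 bases and −0.088 and −0.032 for 2500 to under 4000. At 4000 and over they were −0.184 and 0.042, with only 2 members, Ndufb2 and Atp5g1, placed there by their annotated transcripts. With the trend on length and GC content removed, 21 members were called, 19 lower and 2 higher, and without A7, the wild-type cord library with the most Cox7b, 20 were lower; without B8, 24 were called.

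After SNI, 4 members were lower in knockout than in wild-type cord (4.4%), against a background of 3.31% of genes lower. Uqcrh had 180, 179, 177 and 180 CPM in SNI knockout cord and 225, 200, 206 and 192 CPM in SNI wild-type cord. The groups did not overlap (−0.20 ± 0.046, adjusted p = 0.00672). Cox7a2l (−0.19, adjusted p = 0.00691), Ndufs6 (−0.19, adjusted p = 0.018) and Cox7a2 (−0.18, adjusted p = 0.0307) were lower as well. Leaving out E8 gave 2 called members and leaving out F7 gave 9.

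No member passed the test for SNI in the cord. None was called in knockout cord, against a background of 4.42% of genes called, where 0 members had an unadjusted p under 0.05 and the smallest adjusted p was 0.487. None was called in wild-type cord, against a background of 2.88%, where 2 members had an unadjusted p under 0.05 and the smallest adjusted p was 0.254. DESeq2 also called none of them in either genotype. In the cord interaction of genotype and injury no member was called, 1 had an unadjusted p under 0.05, the smallest adjusted p was 0.802, DESeq2 called none, and 0% of all genes were called. Tested directly in wild type, the response to SNI in DRG minus that in cord was called below 0 for 2 members (2.2%), against a background of 6.92% of genes: Ndufb3 (−0.43 ± 0.107, adjusted p = 0.00491) and Ndufs1 (−0.18 ± 0.061, adjusted p = 0.0428). With the replicate number shared by DRG and cord columns as a block, Ndufs1 did not pass (adjusted p = 0.0747). Leaving out E3 gave 14 members, and leaving out A2, A3, A5, A7, B3, B5, B7, B8, C1, C2, C5, C6, E1, E2, E4, E5, E8, F4, F5, F6, F7 or F8 gave 1.

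Genes around the chain were followed in fixed lists, chosen like the members with earlier results of these data known, and their counts stand against the shares of all genes called in the same comparison, in naive DRG 15.4% lower and 12.8% higher in knockout. In naive knockout DRG, 14 of 46 assembly factors were lower and 2 higher. Lyrm7, which guides the Rieske protein into complex III, was lower in knockout than in wild type in naive DRG (−1.14 ± 0.118, adjusted p = 3.14e-06), SNI DRG (−1.31 ± 0.134), naive cord (−1.23 ± 0.161) and SNI cord (−1.40 ± 0.178). Tfb1m, which modifies the RNA of the mitochondrial ribosome, was lower in the same 4 comparisons (−0.58, −0.56, −0.67 and −0.46), as was Mff, a receptor for mitochondrial fission (−0.32, −0.28, −0.24 and −0.24). The next assembly factors in naive knockout DRG were Coa6 (−0.59) and Tmem126b (−0.22). Outside the name rule, cytochrome c (Cycs, −0.22) and the acyl carrier protein of complex I (Ndufab1, −0.23) were lower there.

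Several genes that feed the chain were higher in naive knockout DRG. Of 13 tricarboxylic acid cycle genes 6 were higher and none lower, with Mdh2 at 0.29 ± 0.067 and Cs at 0.41 ± 0.107. Of 17 glycolysis genes 8 were higher and none lower, among them Pkm (0.40) and Eno2 (0.56). Ppargc1a, a coactivator known for driving mitochondrial genes, was higher by 0.32 ± 0.067 (adjusted p = 0.00323), and 5 of 19 genes of mitochondrial genome expression were lower and 4 higher. Mitoribosomal protein genes were lower in 29 of 78 cases. In naive knockout cord 11 of 46 assembly factors were lower, and 1 of 13 tricarboxylic acid cycle genes, against 9.94% of all genes.

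After SNI, Ppargc1a was lower in knockout DRG (−0.39 ± 0.072) and wild-type DRG (−0.39 ± 0.073), the only 1 of 8 regulators that was lower. Gabpb1 was higher in both (0.23 in knockout and 0.21 in wild type) and Pprc1 in knockout (0.27), against 15.1% of all genes higher in knockout DRG and 12.6% in wild-type DRG. Idh3a was lower (−0.27 and −0.26). In all, 7 of 13 tricarboxylic acid cycle genes were lower in SNI knockout DRG and 4 in SNI wild-type DRG, and 11 and 9 of 46 assembly factors, against 13.3% and 12.3% of all genes lower. Glycolysis was mixed, with Pgk1 higher (0.47 and 0.55) and Ldhb lower (−0.49 and −0.37). In the cord after SNI, Hk2 was higher in knockout (1.17 ± 0.136) and wild type (1.11 ± 0.136), while no assembly factor or tricarboxylic acid cycle gene was called. In naive wild-type DRG against cord, 10 of 13 tricarboxylic acid cycle genes were lower and none higher. Of 46 assembly factors 20 were higher and 15 lower, among the lower ones Atpaf1 (−1.12 ± 0.072). Of 19 genes of mitochondrial genome expression 10 were higher and 4 lower, among the lower ones Tfam (−0.85 ± 0.049). Of 8 regulators of respiratory genes 1 was higher and 4 lower, among them Ppargc1a (−0.99 ± 0.061). These counts stand against 40.1% of all genes higher and 36.6% lower in that comparison. Of 17 glycolysis genes 11 were lower in DRG, led by Aldoc (−3.46), and 3 higher, led by Ldha (1.88).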

How the data were processed

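Libraries were made from mRNA with a stranded kit, per the labels' protocols; FastQC 0.11.5, HISAT2, RSEM and GRCm38 are named in the submitters' processing notes, and the annotation release is not stated. The authors deposited expected counts per gene, and a table of TMM-normalised signal in which each library's values are multiplied by 1 factor; that deposited signal served only limma's alternative. The column of library E1 was deposited with decimal commas in 9150 cells, read here as points, and 1 unreadable cell was restored from the normalised table.

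Expected counts were rounded and symbols taken from GENCODE M21 for 55227 genes; some genes, of the members and outside them, are not reported here by name. edgeR 4.0.16 in R 4.3.3 (filterByExpr, TMM, robust quasi-likelihood fit, Benjamini-Hochberg) was fitted to the 18 DRG libraries, the 18 cord libraries and, for tissue, all 36, with groups as the only term. Alternatives used DESeq2 1.42.0 and limma 3.58.1. Scripts were tested on simulated counts. Members and lists were chosen with earlier results of these data known. Genes named are all mitochondrial members, a fixed list of subunits, isoform families and, in each comparison, up to 8 called members with the lowest adjusted p and up to 6 with the largest fold change; members given library by library, and Ndufs3, Ndufs7, Ndufs8, Ndufv2, Ndufa6, Ndufa12 and Atp5j, were picked after their values were seen. DRG and cord columns share replicate numbers in the deposited tables, which are not stated to mark an animal. Deviations of same-numbered naive wild-type libraries correlated in all 5 pairs (0.145 to 0.34), and over all 18 pairs from 0.03 to 0.34. In 15 of the 18 pairs the same-numbered cord library correlated best within its group. The main tests did not use these numbers.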

Additional observations from a re-analysis of the deposited data

Results flagged for a closer look

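Among 176 checks of 22 quantities in 8 groups, 9 values lay far from the rest of their group. That is near the roughly 1 in 20 that chance gives for independent checks, whereas these checks share libraries. In naive knockout cord, Cox7b was 153.5 CPM in C6 (146.3 to 147.8 CPM in the others), Ndufa11 was 61.62 CPM in B8 (69.05 to 71.91 CPM) and Sdha was 455.9 CPM in A6 (488.1 to 497.6 CPM). In naive wild-type cord, A7 was high for Ndufa11 (89.87 CPM, others 72.65 to 77.26 CPM) and for Ndufb3 (62.65 CPM, others 51.64 to 54.76 CPM). In SNI knockout cord, E6 was high for mt-Co1 (26400 CPM, others 22790 to 23280 CPM) and for mt-Nd4 (8889 CPM, others 7489 to 7694 CPM). In naive knockout DRG, Ndufs1 was 193.6 CPM in A2 (182.3 to 185.2 CPM in the others) and mt-Cytb was 6381 CPM in A4 (5492 to 5676 CPM). A2 and A4 are the libraries whose title and genotype field disagree.

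The response to SNI in wild-type mice differed between tissues for Ndufb3 (−0.429 on the log2 scale, DRG minus cord) and Ndufs1 (−0.183), by edgeR's test of the difference. Ndufb3 stayed called in 11 of 11 other settings and Ndufs1 in 4 of 11; with the shared number as a replicate block the adjusted p of Ndufs1 was 0.0747.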

How the results depend on the processing

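Counts of called members changed most with the choice of libraries and with transcript length. For SNI against naive, wild-type DRG gave 6 members, but 2 with no filter on low counts, 3 with mitochondrial genes left out of the scaling, 3 without A2 and A4, 1 with only the 2 groups compared, 41 with the length and GC trend removed, 35 without A3, C1, E3 and F3, and 2 to 22 leaving out each library in turn. Knockout DRG gave 15, but 7 without A2 and A4, 42 with only the 2 groups, 44 with the trend removed, 39 without A3, C1, E3 and F3, and 8 to 22 leaving out each library. Knockout against wild type in naive DRG gave 40, but 9 without A2 and A4, and 16 to 48 leaving out each library. In SNI DRG it gave 0, but 5 with DESeq2, 1 with mitochondrial genes left out of the scaling, 5 with the trend removed and 0 to 24 leaving out each library. In naive cord it gave 37, but 21 with the trend removed, 20 without A7 and 20 to 47 leaving out each library; in SNI cord 4, and 2 to 9. SNI in wild-type cord gave 0, but 1 with the trend removed. The 2 interactions and SNI in cord stayed at 0 when any library was left out. For DRG against cord, 63 members were called, 58 to 66 leaving out each library and 64 with the shared number as a replicate block, all 63 among them; with the trend removed 76 were called and the balance reversed. The tissue difference in the SNI response gave 2, but 1 with DESeq2 size factors, no filter, limma, the replicate block or without A7, 15 with the trend removed, 22 without A3, C1, E3 and F3, and 1 to 14 leaving out each library. With the title's letter as a block, knockout against wild type gave 47 in naive DRG, 0 in SNI DRG, 27 in naive cord and 3 in SNI cord. The fit without A3, C1, E3 and F3, that without A7, the trend and the sums with copies were chosen after seeing the data.

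Over 167 called pairs of member and comparison, 6014 values under other settings were compared, of which 5320 were still called and 21 changed sign, all with the trend removed: Ndufb3 in naive knockout DRG (0.034), and in DRG against cord Ndufa1 (−0.46), Ndufa2 (−0.21), Ndufa4 (−0.12), Ndufa5 (−0.13), Ndufa9 (−0.26), Ndufb11 (−0.11), Ndufb3 (−0.03), Ndufc1 (−0.40), Ndufs5 (−0.36), Sdhb (−0.038), Sdhd (−0.032), Uqcr10 (−0.061), Uqcrh (−0.014), Cox5b (−0.39), Cox7a2l (−0.30), Cox7c (−0.15), Atp5h (−0.11), Atp5l (−0.16), Atp5o (−0.019) and Atp5s (−0.39). The cause was not tested. These totals pool all comparisons and include fits leaving out 1 library, 36 per pair in DRG against cord and 18 within 1 tissue. Some calls were far less stable: Ndufs4 and Sdhb in naive knockout DRG stayed called in 3 of 18 such fits. After SNI in wild-type DRG, Ndufa9 stayed called in 2 of 18, whereas Ndufs1 stayed called in 18 of 18.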

Other observations

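The mitochondrially encoded members are transcribed together as long precursors, and their values for tissue ranged widely. In naive wild-type DRG against cord, mt-Nd2 stood at −0.73 ± 0.118 and mt-Nd5 at −0.04 ± 0.115; the difference between them was not tested. mt-Nd2 averaged 3283 CPM in naive wild-type DRG and 5566 CPM in naive wild-type cord, whereas mt-Nd5 averaged 3094 CPM and 3243 CPM.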
